A study of Mus musculus with 28 samples.

Results

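Cyclic AMP and cyclic GMP are made by cyclases, read by kinases and broken down by phosphodiesterases, and the genes of these enzymes were followed here in nuclei of the mouse gut muscle wall. The set comprised the protein-coding genes of the deposited count table whose symbols name a phosphodiesterase, an adenylyl cyclase, a guanylyl cyclase, a cGMP-dependent kinase or a subunit of cAMP-dependent protein kinase (PKA). It held 49 of 51912 genes: 22 phosphodiesterases, 10 adenylyl cyclases, 9 guanylyl cyclases, 6 PKA subunits and 2 cGMP-dependent kinases. The rule used symbols and no measured value, though the set was chosen with earlier results of these data known.

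Nuclear RNA came from the longitudinal muscle layer and attached myenteric plexus of C57BL/6 mice. All animals had received AAV9-CaMKII-EGFPKASH, a virus that puts a green fluorescent protein on the nuclear envelope under a CaMKII promoter, by vein 5 weeks earlier. EGFP+ nuclei, sorted as neuronal, and EGFP- nuclei, sorted as non-neuronal, were taken from colon and from small intestine. The mice were specific pathogen-free (SPF, 4 libraries in each group) or germ-free (GF, 3 libraries in each group), which gave 28 libraries in 8 groups. A neuron that did not carry or did not express the virus would fall in the non-neuronal fraction.

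Nitric oxide released by enteric neurons activates soluble guanylyl cyclase, a dimer of an alpha and a beta subunit, and the cGMP it makes relaxes gut smooth muscle through the kinase encoded by Prkg1. Adenylyl cyclases respond to receptors through stimulatory and inhibitory G proteins, and cAMP releases the catalytic subunits of PKA from the regulatory ones. Phosphodiesterases end both signals, and their families differ in which nucleotide they cleave and in what controls them: calmodulin for PDE1, cGMP for PDE2 and PDE3, and PKA for PDE4.

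Library totals ran from 2394517 to 7321922 counts, and levels are given as counts scaled to a common library total (CPM). A library with 0 counts of a gene still allows up to 3 counts, which was 0.41 to 1.25 CPM depending on the library. Limits and intervals of this kind cover counting error only. The 12 pan-neuronal markers summed to 3790 to 5992 CPM in neuronal libraries. They summed to 809 to 1791 CPM in colonic and to 35.8 to 691 CPM in small intestinal non-neuronal libraries. In those last libraries mitochondrially encoded genes took 11.1% to 35.6% of counts, against 0.42% to 6.82% in neuronal libraries. In nuclei sorted in bulk, fewer cells of a type and less RNA per cell cannot be told apart.

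A few stretches before the start sites, from RefSeq on GRCm38.p6, are shown for members on which the results below turn. Of the 49 members, 39 had a promoter record of 250 bases before to 50 bases after a start site, 79 records in all. The cAMP response element TGACGTCA, the palindrome bound by CREB, a nuclear target of PKA, was searched on both strands, and so was its shorter core TGACG, which every full element also contains. The full element stood in 1.79% of all 32851 promoters and in 2 of the 79 member promoters, both of Prkar1a, the type I alpha regulatory subunit of PKA. These 2 records overlap and hold the same site, at -49 from 1 start site and at 38, after the start, from the other. The core stood in 20.8% of all promoters and in 22.8% of the member promoters, among them those of Prkar1b, Gucy1a2 and Gucy1b1. In the lines below capitals mark the match, and the stretches lie at chr11:109650880-109650927 (plus strand), chr5:139150026-139150070 (minus), chr9:3532223-3532267 (plus) and chr3:82074715-82074759 (minus) in that order.
Prkar1a: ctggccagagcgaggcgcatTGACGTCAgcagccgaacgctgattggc
Prkar1b: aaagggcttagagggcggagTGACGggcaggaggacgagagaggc
Gucy1a2: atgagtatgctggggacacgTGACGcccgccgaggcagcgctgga
Gucy1b1: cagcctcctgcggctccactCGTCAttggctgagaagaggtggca

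Pde1c has 3 promoter records, and the count table gives 1 value per gene, so transcripts from different start sites were not separated. The 80 bases before each start, printed because Pde1c carried the clearest pattern below, held neither of those elements, nor the GC box GGGCGG or the TATA box letters TATAAA on either strand, which says only that these letters are not in these windows. GGGCGG stood in 35.7% and TATAAA in 13.6% of all promoters. The 3 stretches lie on the minus strand of chromosome 6, at chr6:56362393-56362472, chr6:56369635-56369714 and chr6:56362811-56362890. The 250 bases before them were 58%, 49.6% and 42.8% G or C, against a median of 52.4% over all promoters.
Pde1c start 1: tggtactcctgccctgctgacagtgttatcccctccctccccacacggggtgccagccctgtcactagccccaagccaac
Pde1c start 2: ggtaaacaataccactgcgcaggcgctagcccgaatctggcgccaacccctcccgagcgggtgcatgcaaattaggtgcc
Pde1c start 3: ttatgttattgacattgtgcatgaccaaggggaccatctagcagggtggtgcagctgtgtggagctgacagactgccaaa

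In the GENCODE M21 annotation of GRCm38, Pde1c spans chr6:56069804-56569103 (minus strand), Pde4c chr8:70723720-70751186 (plus), Pde2a chr7:101421691-101512827 (plus) and Prkg1 chr19:30564489-31765033 (minus). Gucy1a2 spans chr9:3532778-3894736 (plus), Prkar1b chr5:139017306-139150001 (minus) and Gucy2c chr6:136697284-136781765 (minus). Gucy1b1, at chr3:82032006-82074689 (minus), lies beside Gucy1a1, at chr3:82092427-82145789 on the same strand.

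Most members were measurable in these nuclei. In the fit over all 28 libraries 45 of the 49 passed the filter on low counts, and Gucy1b2, Gucy2d, Gucy2f and Pde6c did not. Within neuronal libraries 41 passed, the others being those 4 with Adcy4, Gucy2c, Pde6a and Pde6b. Within non-neuronal libraries 42 passed, the others being the same 4 with Adcy10, Gucy2e and Gucy2g. Gucy2d, the guanylyl cyclase of a class of olfactory neurons, and Gucy2f, one of the retina, reached 10 counts in 0 libraries, and the photoreceptor enzyme gene Pde6c did so in 1 library.

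Levels of different genes were compared only as CPM per kilobase of exon. By the mean of the neuronal group means the highest member on that scale was Prkar1a (mean 32.2, range over the 14 libraries 15.8 to 43.6). Next were Pde5a, the cGMP-specific phosphodiesterase inhibited by sildenafil (31.8, 14.1 to 54.2), and Gucy1b1, the obligate beta subunit of soluble guanylyl cyclase (28.8, 9.01 to 46.8). Gucy1a1, its alpha-1 partner, was close (28.5), and it had the highest mean of all members in SPF (37.8) and in GF (35.3) small intestinal neuronal libraries. By the mean of the non-neuronal group means the 3 highest were Gucy1b1 (42.8, 16.9 to 77.4), Gucy1a1 (23.5, 7.58 to 43.6) and Pde3a, a cAMP phosphodiesterase inhibited by cGMP (22.9, 12.4 to 32.0). Ranges over libraries overlapped in both fractions, and the order differed between groups, so the members could not be ordered: in GF colonic non-neuronal libraries Gucy1b1 (22.6) was below Gucy1a1 (24.7). Summed by role, phosphodiesterases had group medians of 160 to 199 CPM per kilobase in neuronal and 111 to 144 in non-neuronal libraries. PKA subunits had group medians of 69.3 to 89.2 in neuronal and 34.5 to 58.5 in non-neuronal libraries. The map of all members by library shows these blocks.

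**Figure D1:**
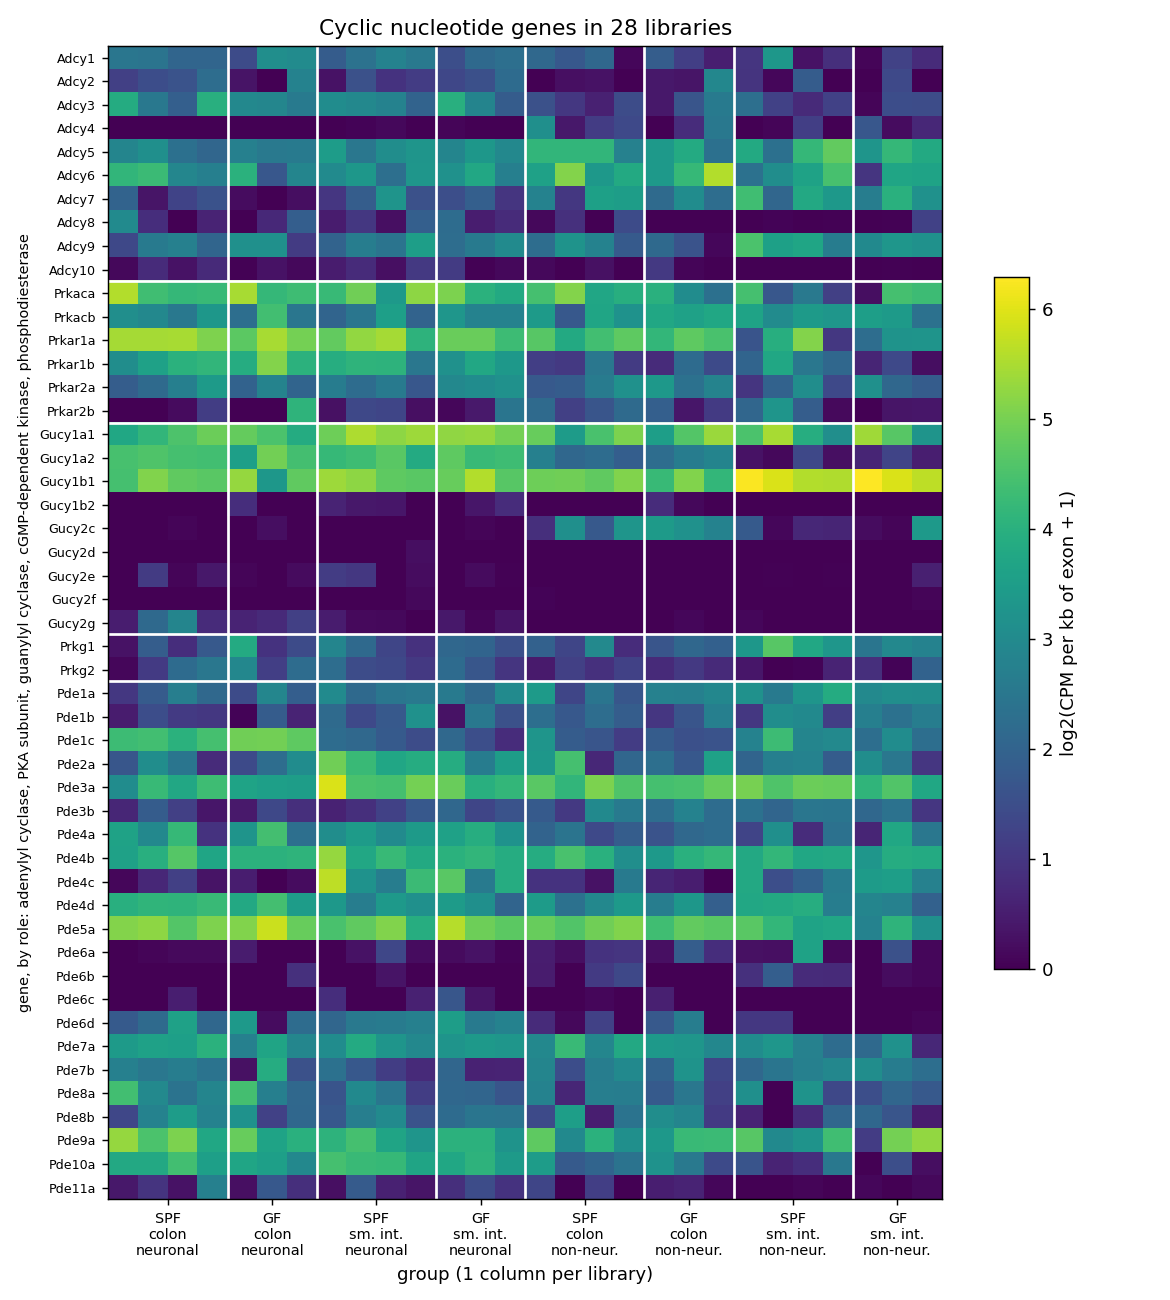
Level of each of the 49 members (rows, ordered by role) in each of the 28 libraries (columns, grouped by microbiota state, segment and sorted fraction), as log2 of CPM per kilobase of exon plus 1. Gucy1b1 is at 9.01 CPM per kilobase or more in every library, Pde1c is bright in both colonic neuronal groups, and Gucy1a2 is dark in small intestinal non-neuronal libraries.

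Neuronal and non-neuronal nuclei were compared within each segment and microbiota state. Members were called at an edgeR adjusted p below 0.05, adjusted over the 20964 genes tested. In the SPF colon 7 members (15.6% of the 45 tested) were called, 5 higher and 2 lower in neuronal nuclei, where 10.8% of all genes were called, 3.27% higher and 7.56% lower. In SPF small intestine 6 members (13.3%) were called, 3 in each direction, beside 15.1% of all genes, 9.09% higher and 6% lower. In the colon of GF mice 5 (11.1%) were called, 3 higher and 2 lower, beside 7.17%, with 2.2% higher and 4.98% lower. In their small intestine 10 (22.2%) were called, 5 in each direction, beside 10.9%, with 5.6% higher and 5.34% lower. The median log2 fold change of the members tested was 0.10, 0.18, 0.48 and -0.19 in that order of comparisons, and that of all genes -0.05, 0.03, -0.07 and 0.02. By direction the members higher in neuronal nuclei were 11.1%, 6.67%, 6.67% and 11.1% of those tested, and those lower were 4.44%, 6.67%, 4.44% and 11.1%. These shares were not tested against the background.

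The fold changes include TMM scaling, which set the neuronal libraries 0.60 lower on the log2 scale in the GF small intestine than scaling by library totals would. That shift was 0.17 for SPF small intestine, 0.04 for SPF colon and -0.12 in the GF colon. Between colon and small intestine the shift was 0.78 in GF and 0.42 in SPF non-neuronal nuclei and -0.03 and 0.15 in neuronal nuclei. Of the called members, 0 had the other direction by library totals in these comparisons. CPM values and fold ratios in the text are by library total.

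**Figure D2:**
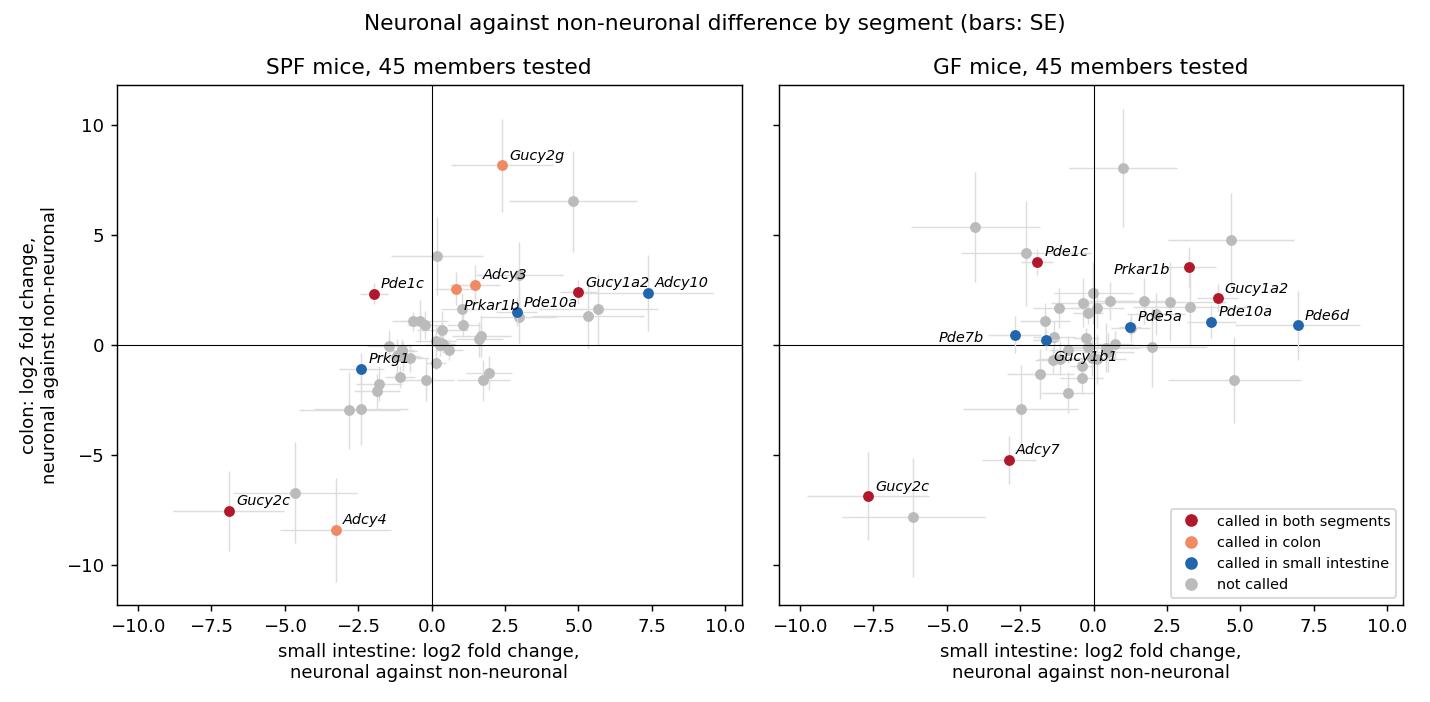
Log2 fold change of neuronal against non-neuronal nuclei in the small intestine (horizontal) and in the colon (vertical) for the 45 members tested, in SPF mice (left) and GF mice (right), with standard errors as bars and called members named. Pde1c lies in the upper left of both panels, at 2.34 in colon and -1.98 in small intestine in SPF mice, while Gucy1a2 lies in the upper right and Gucy2c in the lower left of both.

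Among the guanylyl cyclases, Gucy1a2, the alpha-2 subunit of the soluble enzyme, was higher in neuronal nuclei in all 4 comparisons. In the SPF small intestine its 4 neuronal libraries had 117, 128, 163 and 89.8 CPM and its 4 non-neuronal libraries 1.62, 0.633, 10.6 and 1.35 CPM. In the GF small intestine the values were 171, 122 and 129 CPM against 3.71, 9.67 and 2.87 CPM. In the colon the SPF neuronal libraries had 140, 149, 136 and 132 CPM and the non-neuronal ones 37.5, 22.1, 24.3 and 17.9 CPM. The groups did not overlap in any of these. Between segments the log2 fold change was 0.03 in SPF and -0.03 in GF neuronal nuclei (edgeR adjusted p = 0.986 and 0.992), and 2.46 and 1.995 in non-neuronal nuclei (0.269 and 0.582). The 12 pan-neuronal markers summed to 809 to 1791 CPM in colonic and 35.8 to 691 CPM in small intestinal non-neuronal libraries, where edgeR called 1 of them higher in colon in SPF and 0 in GF mice, and their part was not tested. In SPF mice Gucy1a2 was 35.1-fold higher in the small intestine (edgeR adjusted p = 3.03e-07 for a log2 fold change of 5.00, SE 0.64) and in GF mice 26.0-fold higher (adjusted p = 4.91e-05). Without SPF non-neuronal replicate 3, at 10.6 CPM, the SPF log2 fold change was 6.39. In the colon it was 5.48-fold higher in SPF (adjusted p = 0.00313), and it was 4.02-fold higher in GF mice (70.9, 201 and 134 against 24.7, 35.2 and 41.1 CPM, adjusted p = 0.0323). That last call was lost without GF colonic neuronal replicate 2 or 3 or without any 1 of the GF colonic non-neuronal replicates (adjusted p 0.0702 to 0.170), and without the low-count filter (0.102). The test of whether the neuronal difference itself differed between segments gave -2.58 in SPF (edgeR adjusted p = 0.0921) and -2.09 in GF mice (0.362).

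The other alpha subunit, Gucy1a1, was not called by edgeR in any of the 4 comparisons. Of the CPM per kilobase of both alpha subunits, Gucy1a2 took 52.3% ± 9.8 (SD, n = 4) in SPF and 48.7% ± 17.6 (SD, n = 3) in GF colonic neuronal libraries. In small intestinal neuronal libraries it took 33.2% ± 7.1 and 37.4% ± 4.5. In non-neuronal libraries the share was 16.1% ± 7.2 and 19.3% ± 6.5 in colon and 3.52% ± 4.5 and 3.91% ± 2.3 in small intestine, SPF and GF in each case. These shares describe the libraries and were not tested.

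Gucy1b1, which pairs with either alpha subunit, ran the other way in the small intestine. Its GF non-neuronal libraries there had 304, 235 and 196 CPM and its GF neuronal ones 108, 184 and 95.7 CPM, so that the groups did not overlap. The neuronal level was lower in the GF small intestine (edgeR adjusted p = 0.0169 for a log2 fold change of -1.61, SE 0.46). In the SPF small intestine the difference was -1.01 (adjusted p = 0.0737), with 158, 144, 99.8 and 97.1 CPM in neuronal and 295, 236, 183 and 178 CPM in non-neuronal libraries. Relative log size factors, DESeq2, limma-voom and the fit with only the compared groups called Gucy1b1 there. The GF call was lost without neuronal replicate 1 or 3 or non-neuronal replicate 1 of that segment (adjusted p 0.101 to 0.134).

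Gucy2c, the receptor of guanylin and uroguanylin on gut epithelium, was lower in neuronal nuclei in all 4 comparisons. Its 14 neuronal libraries held 4 counts in all, and the highest value was 0.674 CPM. In colonic non-neuronal libraries it had 3.12, 31.0, 9.40 and 34.3 CPM in SPF and 38.6, 31.8 and 23.6 CPM in GF mice. In the small intestine the non-neuronal values were 9.71, 0.317, 2.51 and 2.26 CPM in SPF and 0.654, 0.254 and 37.6 CPM in GF mice. The neuronal level was 264-fold lower in the SPF colon (95% counting interval 47.5 to 10440, from 1 count) and 158-fold lower in the GF colon (43.8 to 1308, from 2 counts). In small intestine it was lower by at least 2.95-fold in SPF mice, against the highest floor of 3 counts per library, and 176-fold lower in GF mice (31.6 to 6957, from 1 count). The edgeR adjusted p was 0.00503, 0.0286, 0.0103 and 0.0119 in that order. Epithelial markers stood beside it: the 8 of them summed to 103 to 1387 CPM in colonic and 42.8 to 665 CPM in small intestinal non-neuronal libraries, and to 10.3 to 79.98 CPM in neuronal libraries, with Krt18 at 0 in all 4 neuronal groups. Fitted values moved with single libraries: to -9.09 from -7.54 without SPF colonic neuronal replicate 3, to -9.78 from -6.88 without GF colonic neuronal replicate 2, and to -5.84 from -6.91 without SPF small intestinal non-neuronal replicate 1. In GF small intestine the value was -7.68, -8.27 without non-neuronal replicate 1 and -9.30 without neuronal replicate 2. By replicate the epithelial sum was 103, 1387, 194 and 551 CPM in SPF and 492, 236 and 623 CPM in GF colonic non-neuronal libraries. In small intestinal ones it was 67.3, 206, 132.5 and 105 CPM in SPF and 42.8, 159 and 665 CPM in GF mice. In SPF small intestine and GF colon the highest sum stood with the lowest Gucy2c. In the SPF colon the lowest sum did. GF small intestinal non-neuronal replicate 3, with 37.6 CPM of Gucy2c, had the 665 CPM. Without it the log2 fold change was -2.87 (adjusted p = 0.395), and the call was also lost without GF neuronal replicate 1 or 3 of that segment (0.0669 and 0.0721). With limma-voom (0.0887) and with a block by replicate number (0.0713) that call was lost as well. In the GF colon it was lost without neuronal replicate 1 or 3 or non-neuronal replicate 1 (adjusted p 0.0689 to 0.128). Without both SPF small intestinal libraries of highest interstitial cell marker sum, an alternative described below, the SPF small intestinal call was lost (0.0636). The part of epithelial nuclei in this result was not tested.

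Gucy2g, a membrane guanylyl cyclase, was called higher in neuronal nuclei of the SPF colon, where its 4 neuronal libraries had 1.65, 13.3, 24.6 and 2.79 CPM and all 4 non-neuronal libraries had 0 counts. It was at least 9.03-fold higher there, against the highest floor of those libraries (edgeR adjusted p = 0.0100), and its fitted log2 value of 8.18 was 7.27 without neuronal replicate 3. Its neuronal level in the GF colon was 2.12, 2.69 and 5.01 CPM.

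Among the adenylyl cyclases, Adcy3, a calmodulin-regulated enzyme known from olfactory cilia, was higher in neuronal nuclei of the SPF colon. Its values were 85.9, 29.8, 17.2 and 91.4 CPM in neuronal and 12.1, 6.50, 3.13 and 11.1 CPM in non-neuronal libraries, which did not overlap. It was 6.83-fold higher (edgeR adjusted p = 0.0353 for a log2 fold change of 2.75, SE 0.88). This call was lost without neuronal replicate 1 or 4, or without any 1 of the 4 non-neuronal replicates (adjusted p 0.0503 to 0.101). Without the low-count filter (0.0687) and with a block by replicate number (0.0514) it was lost too. Of the exon length of Adcy3, 22.1% overlaps Cenpo on the other strand.

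Adcy7, an adenylyl cyclase of immune and blood cells, was lower in neuronal nuclei of both GF segments. In the GF colon it had 1.06, 0 and 1.18 CPM in neuronal and 23.6, 49.2 and 25.6 CPM in non-neuronal libraries (a mean lower by 43.8-fold, edgeR adjusted p = 0.00164 for a log2 fold change of -5.23, SE 1.09). In small intestine it was lower by 5.11-fold (adjusted p = 0.0380), a call lost without any 1 of the 3 neuronal replicates or without non-neuronal replicate 2 or 3 (0.0745 to 0.161). In SPF mice the log2 fold changes were -2.11 in colon (adjusted p = 0.0742) and -1.87 in small intestine (0.0960). DESeq2 and limma-voom called Adcy7 in both SPF segments. Macrophage markers, 8 genes, summed to 3.25 to 33.0 CPM in GF colonic neuronal libraries, with Adgre1, C1qa, C1qb and Cx3cr1 at 0 in all 3, and to 116 to 243 CPM in GF colonic non-neuronal libraries. In the GF small intestine their sums overlapped, at 7.35 to 43.8 CPM in neuronal and 15.5 to 112 CPM in non-neuronal libraries. The part of macrophages in the Adcy7 difference was not tested.

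Adcy4, an adenylyl cyclase of vessels, had 36.7, 1.52, 5.48 and 7.56 CPM in SPF colonic non-neuronal libraries and 0 counts in all 4 neuronal ones. It was at least 10.3-fold lower in neuronal nuclei (edgeR adjusted p = 0.0173), and its fitted log2 value of -8.41 was -7.11 without non-neuronal replicate 1. The 9 endothelial markers summed to 657 to 1538 CPM in the same non-neuronal libraries and to 8.92 to 47.1 CPM in the neuronal ones, with Cdh5 and Kdr at 0 in the latter. Adcy10, the soluble cyclase activated by bicarbonate, was at least 5.32-fold higher in neuronal nuclei of the SPF small intestine, from 3.52, 6.11, 1.67 and 9.35 CPM against 0 counts in all 4 non-neuronal libraries (edgeR adjusted p = 0.0214). That call stood at an adjusted p of 0.0502 and 0.05004 without non-neuronal replicate 3 or 4, and at 0.0532 without both libraries of highest interstitial cell marker sum. Its fitted log2 value of 7.36 was 6.77 without neuronal replicate 4.

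Adcy5 and Adcy6, which calcium inhibits, took together with Adcy7 64.4% to 78.8% of adenylyl cyclase CPM per kilobase in the non-neuronal groups and 38.0% to 50.1% in the neuronal groups. Adcy1, Adcy3 and Adcy8, the calmodulin-regulated enzymes, took 30.3% to 38.6% in the neuronal groups and 4.85% to 10.3% in the non-neuronal groups. These are means per group, and the main edgeR fits called neither Adcy1 nor Adcy8 in any comparison. DESeq2 and edgeR without the low-count filter called Adcy8 in SPF small intestine and in the GF colon, and limma-voom in SPF small intestine. In single libraries the calmodulin group ran from 22.4% to 49.9% in neuronal and from 0.573% to 28.6% in non-neuronal libraries, and the highest non-neuronal value was in an SPF small intestinal library.

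Among the PKA subunits, Prkar1b, the type I beta regulatory subunit found mainly in the nervous system, was higher in neuronal nuclei in 3 of the 4 comparisons. In the SPF colon it had 28.5, 42.5, 57.9 and 63.5 CPM in neuronal and 4.68, 4.11, 17.8 and 4.28 CPM in non-neuronal libraries. In the GF colon it had 53.4, 129 and 59.3 against 2.72, 13.7 and 6.39 CPM. In the GF small intestine it had 30.9, 48.2 and 35.2 against 2.18, 6.11 and 0.683 CPM. None of these groups overlapped. Prkar1b was 6.24-fold higher in the SPF colon (edgeR adjusted p = 0.0232 for a log2 fold change of 2.56, SE 0.76), 10.6-fold higher in the GF colon (adjusted p = 0.0116) and 12.7-fold higher in the GF small intestine (0.0151). In the SPF small intestine the groups overlapped (53.5, 61.8, 60.6 and 17.7 against 11.7, 47.2, 17.8 and 12.4 CPM), and the log2 fold change was 0.84 (adjusted p = 0.469). The SPF colon call was lost without neuronal replicate 3 or 4 or non-neuronal replicate 1, 2 or 4 (0.0558 to 0.0764), and without the low-count filter (0.0718). The GF colon call was lost without neuronal replicate 2 or non-neuronal replicate 1 or 3 (0.0609 to 0.0843), and the GF small intestine call without non-neuronal replicate 3 (0.0925) or with only the compared groups in the fit (0.0644). The log2 fold change was 3.44 without SPF colonic non-neuronal replicate 3, and in GF mice it was 4.25 in colon and 3.86 in small intestine without non-neuronal replicate 2, from 3.56 and 3.25. Of the CPM per kilobase of the 4 regulatory subunits Prkar1b took 21.3% to 32.6% on average in the neuronal groups and 5.99% to 6.85% in 3 non-neuronal groups, but 32.1% ± 18.1 (SD, n = 4) in SPF small intestinal non-neuronal libraries. Prkar1a was low in some of those (9.06, 61.7, 146 and 4.51 CPM). The other 5 PKA subunit genes were not called by edgeR in any comparison, whereas limma-voom called Prkar2b in the SPF colon and Prkar1a in SPF small intestine. Prkaca was called in SPF small intestine without both libraries of highest interstitial cell marker sum.

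Prkaca, the alpha catalytic subunit of PKA, took 73.1% to 77.9% of the CPM per kilobase of the 2 catalytic subunits on average in the 4 neuronal groups. In non-neuronal groups its mean share ran from 33.4% ± 22.01 (SD, n = 4) in SPF small intestine to 68.95% ± 18 (SD, n = 4) in the SPF colon, so single libraries varied widely.

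**Figure D3:**
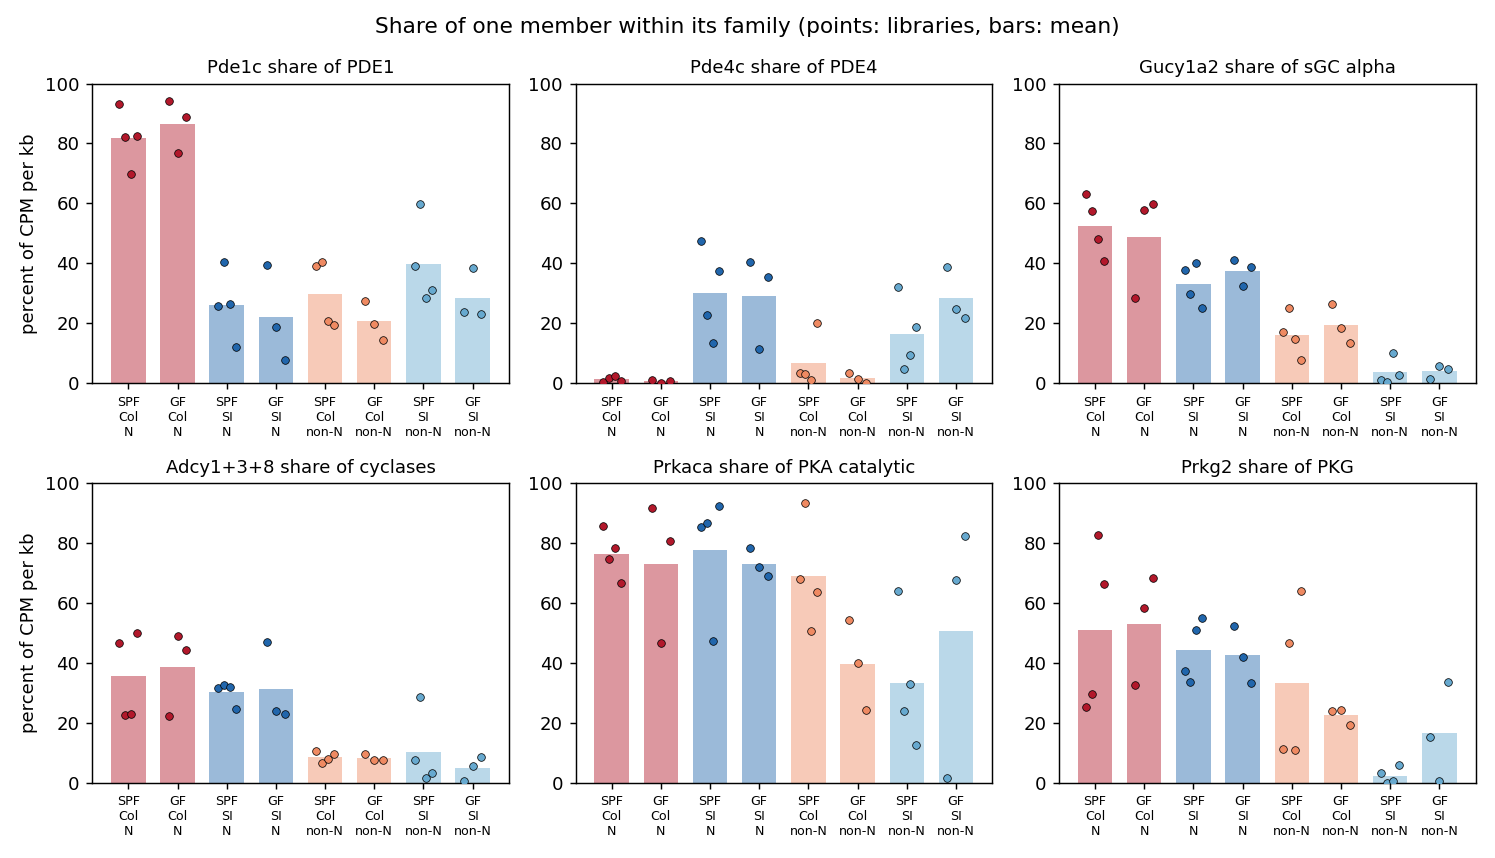
Share of CPM per kilobase of exon taken by 1 member, or by Adcy1, Adcy3 and Adcy8 together, within its family (vertical, percent) in the 8 groups, where N is neuronal, non-N non-neuronal, Col colon and SI small intestine. Points are libraries and bars are group means: the Pde1c share of PDE1 averages 81.9% and 86.7% in colonic neuronal libraries and at most 39.7% in the other groups.

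Prkg1, the kinase through which cGMP relaxes smooth muscle, was lower in neuronal nuclei of the SPF small intestine. Neuronal libraries had 68.5, 37.5, 16.3 and 9.35 CPM, non-neuronal ones 98.1, 263, 137 and 96.2 CPM, with no overlap. It was 4.51-fold lower in neuronal nuclei (edgeR adjusted p = 0.0273 for a log2 fold change of -2.40, SE 0.76). The call was lost without neuronal replicate 2, 3 or 4 or non-neuronal replicate 2 (0.0612 to 0.101), and the value was -3.08 without neuronal replicate 1. All 10 smooth muscle markers were lower in the same comparison, with a median log2 fold change of -3.89, and their part in the Prkg1 difference was not tested. In the GF small intestine the values were 35.4, 33.6 and 20.9 CPM against 48.4, 72.0 and 63.6 CPM (log2 fold change -1.65, adjusted p = 0.220). Prkg2, the membrane-bound kinase, was not called by edgeR in any comparison, and DESeq2 called it in SPF small intestine.

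Of the phosphodiesterases, Pde10a, which cleaves both nucleotides and is best known from striatal neurons, was higher in neuronal nuclei of the small intestine in both microbiota states. Its SPF values there were 268, 236, 226 and 152 CPM in neuronal and 27.2, 6.96, 10.0 and 61.0 CPM in non-neuronal libraries (8.39-fold, edgeR adjusted p = 0.00297 for a log2 fold change of 2.89, SE 0.69). Its GF values were 159, 204 and 126 against 0.218, 23.7 and 2.19 CPM (18.7-fold, adjusted p = 0.00102). Without GF non-neuronal replicate 2, at 23.7 CPM, the GF log2 fold change was 6.18 instead of 4.01, and without SPF non-neuronal replicate 4, at 61.0 CPM, the SPF one was 3.75. In the colon the log2 fold changes were 1.50 in SPF (adjusted p = 0.134) and 1.06 in GF mice (0.421). Limma-voom and the fit with only the compared groups called Pde10a in the SPF colon. The test of the difference between segments gave -1.39 in SPF (adjusted p = 0.522) and -2.95 in GF mice (0.274), so a difference between segments was not shown.

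A further 3 phosphodiesterases were called in GF small intestine, and whether the other comparisons differed from it was not tested. Pde5a was 3.37-fold higher in neuronal nuclei (464, 282 and 249 against 58.7, 158 and 78.5 CPM, edgeR adjusted p = 0.0267). Pde6d, whose product carries prenylated proteins to cilia, was 243-fold higher (95% counting interval 43.6 to 9586, from 1 count in the 3 non-neuronal libraries, adjusted p = 0.0272). Pde7b, a cAMP-specific enzyme, was 3.89-fold lower (39.9, 6.43 and 6.84 against 94.0, 64.9 and 47.9 CPM, adjusted p = 0.0488). The groups did not overlap for any of the 3, yet each call depended on single libraries. The Pde5a call was lost without neuronal replicate 1 or non-neuronal replicate 1 or 3 (0.0859 to 0.182) and under 3 other settings (0.0679 to 0.224). The Pde6d call was lost without neuronal replicate 1 or any 1 non-neuronal replicate (0.0600 to 0.0997), and the Pde7b call without neuronal replicate 2 or 3 or non-neuronal replicate 1 or 3 (0.0600 to 0.196) and with only the compared groups in the fit (0.0530). The fitted log2 value of Pde6d was 8.79 instead of 6.95 without non-neuronal replicate 3, and that of Pde7b was -4.01 instead of -2.69 without neuronal replicate 1.

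Pde1c, a calmodulin-activated phosphodiesterase that cleaves both nucleotides, was higher in neuronal nuclei of the colon and lower in those of the small intestine. The colonic neuronal libraries had 380, 400, 304 and 414 CPM in SPF and 587, 601 and 511 CPM in GF mice. The colonic non-neuronal libraries had 174.5, 51.8, 43.1 and 23.2 CPM in SPF and 51.7, 38.6 and 41.1 CPM in GF mice. All 7 colonic neuronal libraries thus lay above all 7 colonic non-neuronal ones. The small intestinal neuronal libraries had 73.6, 68.1, 49.3 and 35.7 CPM in SPF and 67.6, 37.5 and 15.0 CPM in GF mice. The small intestinal non-neuronal libraries had 118, 377, 126 and 135 CPM in SPF and 77.7, 148 and 77.0 CPM in GF mice. There the order was the opposite, again with no overlap within either microbiota state.

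In the colon Pde1c was 5.12-fold higher in neuronal nuclei of SPF mice (edgeR adjusted p = 8.89e-04 for a log2 fold change of 2.34, SE 0.48) and 12.9-fold higher in those of GF mice (3.79, SE 0.59, adjusted p = 3.99e-05). In the small intestine it was 3.34-fold lower in SPF (-1.98, SE 0.47, adjusted p = 0.00302) and 2.52-fold lower in GF mice (-1.91, SE 0.55, adjusted p = 0.0170). The test of the difference between segments gave 4.32 in SPF (SE 0.67, adjusted p = 3.47e-04) and 5.71 in GF mice (SE 0.80, adjusted p = 1.92e-04). Pde1c was the 1 member called in that test in each state, where 0.892% of all genes were called in SPF (0.105% higher, 0.787% lower) and 0.21% in GF mice (0.0239% higher, 0.186% lower). The median over members was -0.17 and 0.11 beside -0.35 and -0.27 over all genes. Over all alternatives run, the adjusted p of these tests of the difference was at most 0.00235 in SPF and 0.00128 in GF mice. Without SPF colonic non-neuronal replicate 1 the log2 fold change in colon was 3.15 and the difference between segments 5.13, and without SPF small intestinal non-neuronal replicate 2 they were -1.34 in small intestine and 3.65. The GF small intestinal call depended on single libraries: it was lost without neuronal replicate 2 or 3 (0.0723 and 0.131), and with only the compared groups in the fit (0.0535).

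The segments were then compared within neuronal nuclei, where colon and small intestine were contrasted for 41 members and 17298 genes. In SPF mice 3 members were called, Pde1c higher and Pde4c and Pde2a lower in colon, beside 0.653% of all genes (0.249% higher, 0.405% lower). In GF mice 2 were called, Pde1c higher and Pde4c lower, beside 0.301% (0.133% higher, 0.168% lower). The median log2 fold change of the members was -0.05 and -0.03, that of all genes 0.03 and 0.02. DESeq2 also called Gucy1a1 and Pde3a lower in SPF and Adcy7 in GF mice, and limma-voom called Gucy1a1 in SPF mice.

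Pde1c was 6.61-fold higher in colonic than in small intestinal neuronal nuclei of SPF mice (374 against 56.6 CPM, edgeR adjusted p = 6.74e-05 for a log2 fold change of 2.58, SE 0.34). In GF mice it was 14.1-fold higher (566 against 40.0 CPM, 3.89, SE 0.41, adjusted p = 1.03e-05). The call was kept under all alternatives run, with an adjusted p of at most 0.00268 in SPF and 0.00409 in GF mice. Of the CPM per kilobase of the 3 PDE1 genes, Pde1c took 81.9% ± 9.5 (SD, n = 4) and 86.7% ± 8.8 (SD, n = 3) in SPF and GF colonic neuronal libraries. In small intestinal neuronal libraries it took 26.1% ± 11.6 and 21.97% ± 16.2. Pde1a and Pde1b, the other PDE1 genes, were not called by edgeR. In non-neuronal nuclei the direction was the opposite, with a log2 fold change of -1.92 in SPF (edgeR adjusted p = 0.0836) and -1.90 in GF mice (0.242).

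Pde4c, a cAMP-specific phosphodiesterase of the PDE4 family, was near its floor in colonic neuronal nuclei. It had 0.413, 3.52, 7.18 and 1.39 CPM in SPF and 2.39, 0 and 0.885 CPM in GF mice. In small intestinal neuronal nuclei it had 277, 45.8, 29.6 and 104 CPM in SPF and 138, 28.1 and 77.8 CPM in GF mice. Every small intestinal library lay above every colonic one. Pde4c was 36.5-fold lower in colon in SPF (edgeR adjusted p = 0.00226 for a log2 fold change of -5.31, SE 0.89) and 74.4-fold lower in GF mice (-6.09, SE 1.1, adjusted p = 0.00759). The log2 fold change was -6.15 without SPF colonic replicate 3, -4.44 without SPF small intestinal replicate 1 and -7.35 without GF colonic replicate 1. With limma-voom and quality weights neither call was made (0.0680 and 0.284), and the GF call was also lost without colonic replicate 2 or 3 (0.0577 and 0.0662). edgeR did not call the other PDE4 genes: Pde4d, for one, had log2 fold changes of 0.86 in SPF (adjusted p = 0.359) and 1.12 in GF mice (0.335).

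Pde4c was also measured outside the neuronal fraction. Its small intestinal non-neuronal libraries had 71.8, 10.4, 15.9 and 28.9 CPM in SPF and 55.6, 58.5 and 32.4 CPM in GF mice, and the neuronal difference there was not called (adjusted p = 0.185 and 0.971). Colonic non-neuronal libraries had 5.07, 4.98, 1.305 and 27.7 CPM in SPF and 3.18, 2.29 and 0 CPM in GF mice. The difference between segments in non-neuronal nuclei was -2.04 in SPF (adjusted p = 0.331) and -5.47 in GF mice (0.0518).

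**Figure D4:**
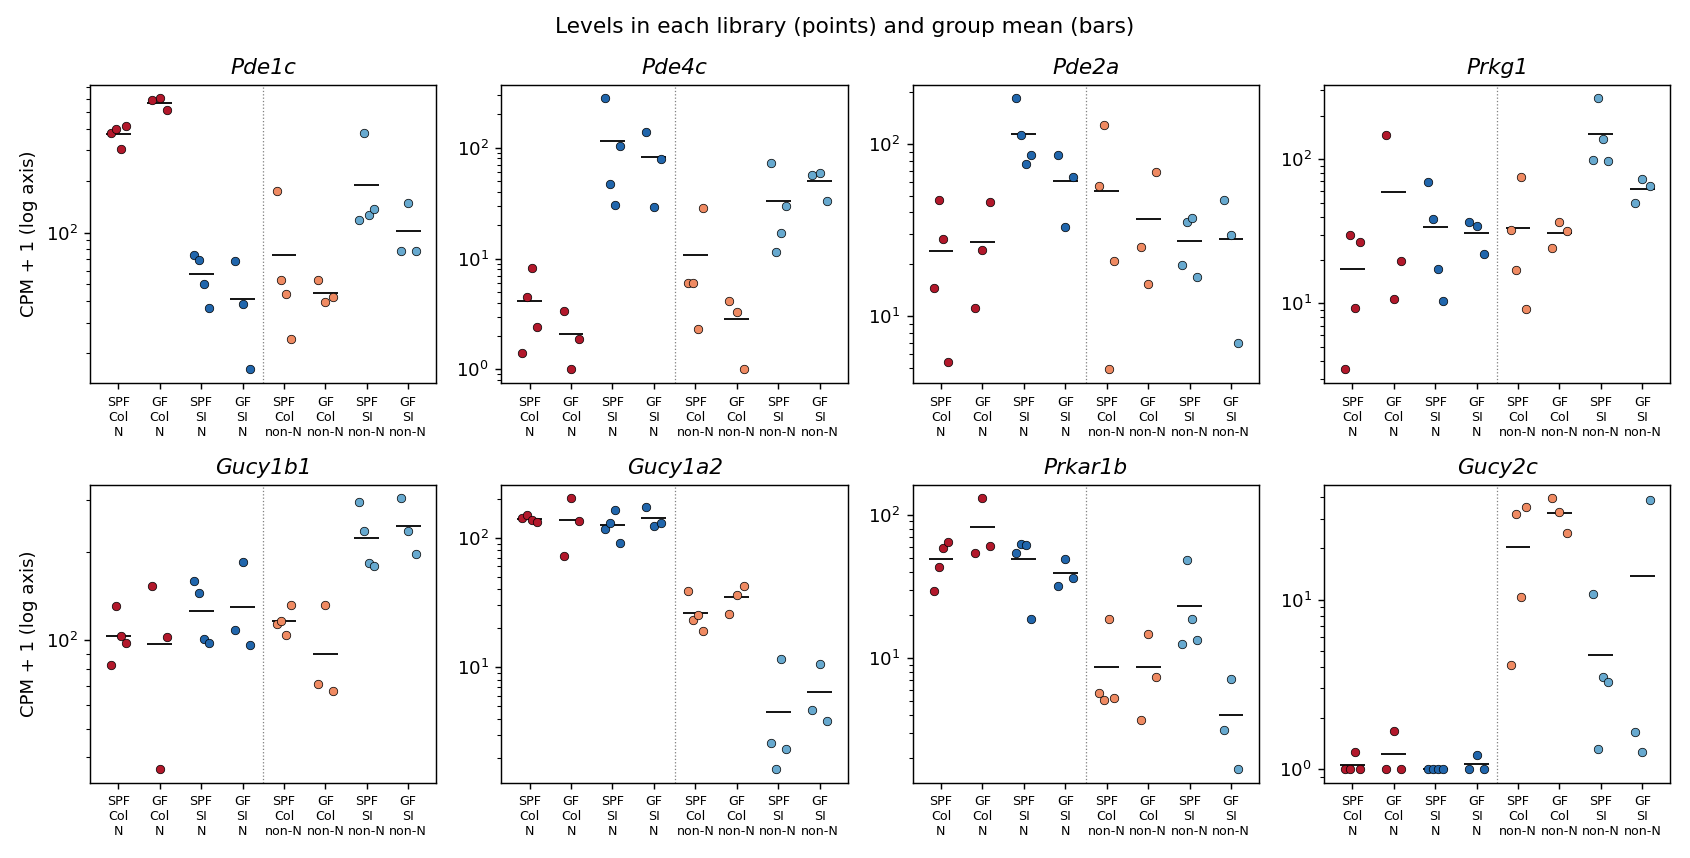
CPM plus 1 on a log axis (vertical) of 8 members in each library (points) with group means (bars), by microbiota state, segment (Col colon, SI small intestine) and fraction (N neuronal, non-N non-neuronal). Pde1c is at 304 to 601 CPM in colonic and 15.0 to 73.6 CPM in small intestinal neuronal libraries, and Pde4c at 0 to 7.18 and 28.1 to 277 CPM in the same order.

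Pde2a, a cGMP-stimulated phosphodiesterase, was lower in colonic than in small intestinal neuronal nuclei of SPF mice. It had 13.6, 46.3, 27.2 and 4.46 CPM in colon and 182, 111, 75.6 and 85.1 CPM in small intestine, without overlap. The log2 fold change was -2.48 (SE 0.60, edgeR adjusted p = 0.0487, 4.96-fold). It is the weakest of these calls: it was lost without any 1 of the 4 small intestinal replicates or without colonic replicate 1, 3 or 4 (0.0617 to 0.194), and under 3 other settings planned (0.0545 to 0.245). In GF mice the log2 fold change was -1.19 (adjusted p = 0.552). Of the exon length of Pde2a, 64.3% is shared with Gm45837 on the same strand, so its counts depend on how reads were divided between these genes and are uncertain. Pde3a, which edgeR did not call but DESeq2 and the fit without the low-count filter did in SPF mice, had a log2 fold change of -1.40 in SPF (adjusted p = 0.0645) and -0.81 in GF mice (0.5002).

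Markers of interstitial cells of Cajal, the pacemaker cells of the gut, stood beside Pde4c, Pde2a and Pde3a. Ano1, the chloride channel that defines these cells, was at 0 to 1.62 CPM in the 7 colonic neuronal libraries and at 24.2 to 679 CPM in the 7 small intestinal ones. Kit overlapped, at 0 to 29.0 CPM in the colonic and 15.4 to 581 CPM in the small intestinal ones. The 5 markers of these cells summed to 299 to 505 CPM in the former, with Gja1 at 0 in GF and Edn3 at 0 in SPF libraries, and to 449 to 2133 CPM in the latter. Etv1 made up most of the sum in colonic neuronal libraries, at 298 to 483 CPM, so the sum there is not a level of these cells. It was at 408 to 764 CPM in small intestinal neuronal libraries and at 55.1 to 252 CPM in non-neuronal ones. Ano1 was at 86.9 to 180 CPM in colonic non-neuronal libraries. SPF small intestinal neuronal replicate 1 was highest in the marker sum (2133 CPM), in Ano1 (679 CPM), in Kit (581 CPM), in Pde4c (277 CPM), in Pde2a (182 CPM) and in Pde3a (770 CPM). Without that library and SPF small intestinal non-neuronal replicate 1, an alternative chosen after the data were seen, Pde4c kept its call and Pde2a did not (adjusted p = 0.194). The part of interstitial cells in these differences was not tested.

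**Figure D5:**
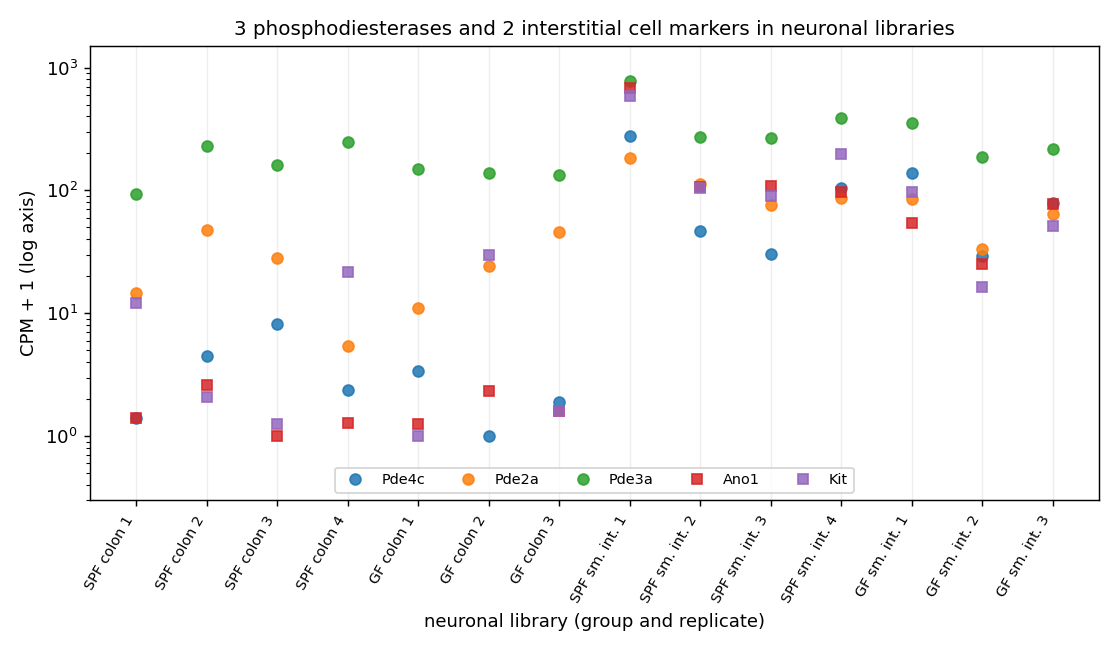
CPM plus 1 on a log axis (vertical) of Pde4c, Pde2a and Pde3a (circles) and of Ano1 and Kit, markers of interstitial cells (squares), in each of the 14 neuronal libraries (horizontal). Ano1 is at most 1.62 CPM in colon and at least 24.2 CPM in small intestine, whereas Kit overlaps, at 0 to 29.0 and 15.4 to 581 CPM. SPF small intestinal replicate 1 is highest for all 5 genes.

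Within non-neuronal nuclei 1 member was called between segments in each state, of 42 tested. The shares over 18267 genes were 1.09% in SPF (0.558% higher, 0.531% lower) and 0.712% in GF mice (0.219% higher, 0.493% lower). The members' median log2 fold change was -0.49 and -0.44, that of all genes 0.02 and 0.03. Both were lower in colon. Other settings also called Pde1c, Gucy1a2 and Gucy1b1 in SPF and Pde4c and Adcy9 in GF mice, and with only the compared groups in the fit no member was called.

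In SPF mice that member was Prkg1, with 31.2, 16.02, 74.1 and 8.06 CPM in colon and 98.1, 263, 137 and 96.2 CPM in small intestine (4.59-fold lower, edgeR adjusted p = 0.0334 for a log2 fold change of -2.68, SE 0.63). The call was lost without colonic replicate 1, 2 or 4 or small intestinal replicate 2 or 3 (0.0523 to 0.144), with all 28 libraries in the fit (0.0558) and with only the compared groups (0.0712), and the value was -3.53 without colonic replicate 3. In GF mice the log2 fold change was -1.82 (adjusted p = 0.323), from 23.4, 35.8 and 30.7 CPM in colon and 48.4, 72.0 and 63.6 CPM in small intestine.

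In GF mice it was Gucy1b1, with 69.9, 130 and 66.3 CPM in colon and 304, 235 and 196 CPM in small intestine (2.76-fold lower, edgeR adjusted p = 0.00933 for a log2 fold change of -2.36, SE 0.46). The call was lost without colonic replicate 1 or 3 or small intestinal replicate 1 (0.0920 to 0.107) and with only the compared groups in the fit (0.0638). In SPF mice, at 113, 116, 103 and 130 CPM against 295, 236, 183 and 178 CPM, the log2 fold change was -1.37 (adjusted p = 0.0721). The 12 pan-neuronal markers, at 809 to 1791 CPM in colonic and 35.8 to 691 CPM in small intestinal non-neuronal libraries, differ between the segments compared here. Of the 10 smooth muscle markers 2 were called lower in colon in SPF and 4 in GF mice, where they summed to 9546 to 13770 CPM in colon and 17930 to 20920 CPM in small intestine. In SPF mice the sums overlapped, at 9281 to 19270 CPM in colon and 15650 to 19320 CPM in small intestine. The mitochondrially encoded share was 4.64% to 10.8% in GF colonic and 13.4% to 35.6% in GF small intestinal libraries, and 3.49% to 7.44% and 11.1% to 12.9% in SPF ones. The part of these in the Prkg1 and Gucy1b1 differences was not tested.

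The question of whether the microbiota alters these genes was addressed by SPF against GF mice in each segment and fraction. No member was called by edgeR: 0 of 41 in colonic and in small intestinal neuronal nuclei and 0 of 42 in colonic and in small intestinal non-neuronal nuclei. Over all genes the shares called by edgeR were 0% in 3 comparisons and 0.00547% in small intestinal non-neuronal nuclei. At an unadjusted p below 0.05 the members numbered 4, 1, 2 and 3 in that order, and DESeq2 called 1, 0, 0 and 0. Over all genes DESeq2 called 138, 10, 5 and 374. The unadjusted counts were not set against the share of all genes at that threshold. The median log2 fold change of the members was -0.05, 0.16, 0.11 and -0.09, that of all genes 0.02, 0.04, 0.07 and 0.04.

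The DESeq2 call was Adcy7 in colonic neuronal nuclei, with 20.2, 1.90, 9.48 and 13.4 CPM in SPF and 1.06, 0 and 1.18 CPM in GF mice. Its log2 fold change by edgeR was 3.71 (SE 1.20, adjusted p = 0.411), against an adjusted p of 0.0409 by DESeq2. Prkg1 in the same nuclei had -2.003 (SE 0.84, edgeR adjusted p = 0.464), but GF replicate 1 had 146 CPM and the others 9.77 and 18.6 CPM, and without it the value was 0.05. Pde1c had 374 CPM in SPF and 566 CPM in GF colonic neuronal nuclei without overlap (edgeR adjusted p = 0.511 for a log2 fold change of -0.74, SE 0.34). In small intestinal neuronal nuclei the lowest p belonged to Pde3a (0.82, SE 0.38, edgeR adjusted p = 1) and Gucy2e (3.43, SE 1.96, adjusted p = 1).

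In colonic non-neuronal nuclei the lowest p belonged to Pde6b and Adcy8. Pde6b had 1.95, 0, 5.48 and 7.81 CPM in SPF mice and 0 counts in all 3 GF libraries (edgeR adjusted p = 1). Adcy8 had 0.781, 6.71, 0 and 14.1 CPM in SPF mice and 0 counts in all 3 GF libraries (adjusted p = 1). In small intestinal non-neuronal nuclei they were Prkar2b, the type II beta regulatory subunit (4.03, SE 1.74, adjusted p = 0.407), and Adcy8 (-4.95, SE 2.27, adjusted p = 0.434), whose value turned to 0.19 without GF replicate 3. These levels lay close to the floor in most libraries.

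Whether the difference between segments itself differed between SPF and GF mice was tested in each fraction. By edgeR no member was called in either, and 0% of all genes were. At an unadjusted p below 0.05, again without the share of all genes, the members numbered 1 in neuronal and 2 in non-neuronal nuclei. DESeq2 called 0 members in both, beside 24 and 61 of all genes. In neuronal nuclei the lowest p belonged to Pde1c (-1.31, SE 0.49, edgeR adjusted p = 0.773) and Adcy7 (2.77, SE 1.48, adjusted p = 0.802). In non-neuronal nuclei it belonged to Adcy8, whose fitted value rests on groups at 0 (adjusted p = 0.652), and Pde4c (3.43, SE 1.53, adjusted p = 0.691).

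The wider pathway was described by 6 lists of other genes, from which the called genes of largest change are named. Counts are given for the colon then the small intestine of SPF mice, followed by those of GF mice. In that order edgeR called 3.27%, 9.09%, 2.2% and 5.6% of all genes higher in neuronal nuclei. It called 7.56%, 6%, 4.98% and 5.34% lower. The lists were not tested against these shares. Of 10 targets of the cGMP kinase in smooth muscle, all tested, 5, 6, 4 and 5 were lower in neuronal nuclei and 0, 1, 0 and 0 higher. Mrvi1, the partner of the kinase at calcium stores, averaged 35.8 against 434 CPM in SPF small intestine (edgeR adjusted p = 2.67e-05). Ppp1r12a, the targeting subunit of myosin phosphatase, averaged 256 against 4237 CPM in GF small intestine (1.65e-13). Pln, the brake on the calcium pump of muscle, averaged 0.31 against 15.9 CPM in the SPF colon (0.00506), and Rgs2, a brake on receptor signals, 1.82 against 40.9 CPM in GF small intestine (0.00187). Mrvi1, Ppp1r12a, Ppp1r12b and Rgs2 were lower in all 4 comparisons, a set noted after the values were seen. The 10 smooth muscle markers were also lower in neuronal libraries, at 457 to 1561 CPM summed, against at least 9281 CPM in non-neuronal ones, and their part in these counts was not tested.

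Of 8 G protein genes of adenylyl cyclase, 1, 2, 1 and 1 were higher in neuronal nuclei and 0 lower. Gnao1, the major inhibitory G protein of neurons, averaged 772 against 260 CPM in the SPF colon (edgeR adjusted p = 0.00116). Of 13 genes for guanylyl cyclase ligands, receptors and nitric oxide synthases 9 were tested, and 1, 3, 1 and 1 were higher and 2, 2, 3 and 1 lower. Nos1, the neuronal nitric oxide synthase, averaged 982 against 12.3 CPM in GF small intestine (0.00193), and Npr2, the receptor of C-type natriuretic peptide, 416 against 109 CPM in the GF colon (0.00391). Npr1, the receptor of atrial natriuretic peptide, had 0 counts in colonic neuronal libraries and 14.3 and 35.5 CPM in SPF and GF non-neuronal ones (0.00438 and 0.00993). Npr3, the receptor that clears natriuretic peptides, averaged 0.296 against 27.3 CPM in SPF small intestine (0.00421). Guca1b, Guca2a and Nppa were called from means of at most 9.34, 40.8 and 4.65 CPM.

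Of 21 genes for PKA anchoring and inhibition 18 were tested, and 1, 2, 1 and 1 were higher and 1, 1, 0 and 1 lower. Akap13, an anchoring protein of PKA, averaged 1919 against 727 CPM in the GF colon (edgeR adjusted p = 7.89e-04). Of 25 other effectors and nuclear targets of cAMP 21 were tested, and 2, 6, 2 and 4 were higher and 1, 1, 1 and 0 lower. Cnga3, a cyclic nucleotide-gated channel subunit, averaged 140 against 7.97 CPM in the GF colon (0.0237), and Hcn3, a cyclic nucleotide-modulated channel, 122 against 0.57 CPM in GF small intestine (6.59e-04). Cngb1, Popdc3 and Hcn2 had 0 counts in SPF small intestinal non-neuronal libraries and 10.7, 15.4 and 3.18 CPM in the neuronal ones. Rapgef4, a cAMP-activated exchange factor, averaged 71.6 against 7.33 CPM in the SPF colon (0.0432) and Crtc1, a coactivator of CREB, 171 against 32.8 CPM in the GF colon (0.00360). Ppp1r1b, an inhibitor of protein phosphatase regulated by PKA, was lower in the colonic comparisons, with 0.07 against 13.8 CPM in SPF mice (0.0450). Of 6 genes for small subunits, export and other phosphodiesterases 5 were tested, and 1, 1, 0 and 1 were higher, each time Abcc5, an exporter of cyclic nucleotides (418 against 125 CPM in the SPF colon, 0.00112).

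Between segments edgeR called 2 of 68 genes of these lists in non-neuronal nuclei of each state, Hcn4 and Ppp1r12a, both lower in colon. Of all genes, 0.531% in SPF and 0.493% in GF mice were called lower there. Hcn4, the pacemaker channel of the heart, averaged 0.063 CPM in colon and 41.4 CPM in small intestine of SPF mice (edgeR adjusted p = 1.38e-04) and 1.04 against 64.3 CPM in GF mice (0.00508). Ppp1r12a averaged 2382 against 4207 CPM in SPF (0.00388) and 1802 against 4237 CPM in GF mice (1.36e-04). In neuronal nuclei edgeR called 0 of 66 in either state, with 13 in SPF and 9 in GF mice at an unadjusted p below 0.05. It called 0.653% and 0.301% of all genes there. Hcn4 was the 1 of 71 whose neuronal difference differed between segments in SPF mice (8.65, edgeR adjusted p = 0.0312), and 0 did in GF mice, with 12 at an unadjusted p below 0.05. In that test 0.892% of all genes were called in SPF and 0.21% in GF mice. Between SPF and GF mice edgeR called 0 in each of the 4 comparisons, with 7 in colonic neuronal, 2 in small intestinal neuronal, 2 in colonic non-neuronal and 9 in small intestinal non-neuronal nuclei at an unadjusted p below 0.05. No share of all genes at the unadjusted threshold was set beside these counts.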

How the data were processed

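One table of expected counts, 51912 genes by 28 libraries, was deposited by the authors, and 7.478% of its values were not whole. The submitters' processing notes list RSEM 1.3.0, STAR 2.5.2, DESeq2 1.10.1 and GRCm38 with no role or order. The sources used here do not say whether counting used strand, so overlapping genes may share reads. Per the labels' protocols, libraries had 8 PCR cycles and 75 bp single-end reads.

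Counts were rounded. GENCODE M21 gave gene type and exon length for 51719 identifiers, and the 193 others stayed in the tests. Within groups, 0 of 36 library pairs were identical (r across genes 0.791 to 0.945). No label ties libraries to separate animals, so p-values reflect only the spread among libraries, possibly technical.

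Tests were two-sided quasi-likelihood F tests in edgeR 4.0.16 (R 4.3.3), scaled by TMM, with filterByExpr by group and robust fitting. All 28 libraries entered the fits of fractions and of segment by fraction (20964 genes), and 14 those within a fraction (17298 neuronal, 18267 non-neuronal genes). A call needed a Benjamini-Hochberg adjusted p below 0.05, and each SE is the log2 fold change divided by the root of F.

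The members and lists were chosen with earlier results of these data known. Members called outside the fraction comparisons, or alike in at least 3 of the 4, are given by library, as are the 3 highest per length by range. The 2 of lowest p stand where none was called, and of pathway genes up to 4 of largest change each way per fraction comparison. Library values of other called members, and Pde1c between SPF and GF mice, were added after they were seen. Alternatives were DESeq2 1.42.0, limma-voom (limma 3.58.1), relative log size factors, other low-count filters, other sets of libraries in the fit, blocking by replicate number, and each library left out. Simulated data with known changes were used to test the fitting steps.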

Additional observations from a re-analysis of the deposited data

Results flagged for a closer look

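Values far from the others in a group of 4 SPF libraries were sought for 12 members, those described by library or highest per length. Of the 48 groups looked at 5 had one, and chance gives about 1 in 20. In SPF small intestinal non-neuronal libraries, replicate 3 had 10.58 CPM of Gucy1a2 and replicate 2 had 376.9 CPM of Pde1c, each above the others. In SPF colonic non-neuronal libraries, replicate 4 had 27.71 CPM of Pde4c and replicate 3 had 17.75 CPM of Prkar1b, each above the others. In SPF colonic neuronal libraries, replicate 4 had 140.4 CPM of Prkar1a, below the others.

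The neuronal difference of Pde1c differed between colon and small intestine by 4.322 in SPF and 5.707 in GF mice on the log2 scale (edgeR adjusted p = 3.47e-04 and 1.92e-04), and its sign was opposite in the segments in both.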

How the results depend on the processing

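Counts of called members moved with the tool, the libraries in the fit and the filter, and so did those of all genes. DESeq2 called 13 in SPF small intestine and 9 in the GF colon between fractions, 2 in the SPF test of segment by fraction, 5 between segments in SPF neuronal nuclei, 4 in SPF and 3 in GF non-neuronal nuclei, and 1 between SPF and GF colonic neuronal nuclei. Limma-voom called 15 in the SPF colon and 15 in SPF small intestine between fractions, 1 between segments in GF neuronal nuclei, and 2 in SPF and 2 in GF non-neuronal nuclei. Between segments of non-neuronal nuclei, no low-count filter gave 2 in SPF and 2 in GF mice, all 28 libraries in the fit 2 and 2, and only the groups compared 0 and 0. Over all genes these settings called 577 and 306, 811 and 309, and 167 and 76, against 199 and 130 in the main fits. With only the groups compared, 5 members were called between fractions of GF small intestine, beside 1958 genes against 2292. Over all genes DESeq2 called 4502 against 3164 in SPF small intestine, 2973 against 1504 in the GF colon and 811 against 187 in the SPF test of segment by fraction. Between segments it called 429 against 113 in SPF neuronal nuclei, and 1083 in SPF and 542 in GF non-neuronal nuclei. Limma-voom called 3963 against 2270 in the SPF colon and 4077 in SPF small intestine. Between segments it called 54 against 52 in GF neuronal nuclei, and 330 in SPF and 260 in GF non-neuronal nuclei. The cause of these differences was not tested.

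Libraries of the same replicate number were not treated as pairs in the main fits, and correlations of their deviations from the group means were low (-0.068 to 0.079). Between fractions a library correlated best with its own number for 3 of 4 in the SPF colon and 3 of 4 in SPF small intestine. In GF mice it did so for 0 of 3 in colon and 3 of 3 in small intestine. Whether the numbers mark pairs was therefore not settled. With the replicate block, 2 members were called between segments in SPF and 2 in GF non-neuronal nuclei. Of the 49 results given for single members it ended the calls of Adcy3 in the SPF colon (adjusted p = 0.0514) and Gucy2c in GF small intestine (0.0713).

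Leaving out 1 library at a time gave 5 to 7 members between fractions in the SPF colon, 5 to 7 in SPF small intestine, 2 to 4 in the GF colon and 4 to 8 in GF small intestine, where all genes called numbered 1569 to 2155, 2328 to 3138, 773 to 1181 and 1454 to 2173. Segment by fraction gave 1 to 2 in each state, neuronal segments 2 to 3 in SPF and 1 to 2 in GF mice, non-neuronal segments 0 to 1 in each, and the comparisons of microbiota 0. Between SPF and GF mice, Prkg1 in colonic neuronal nuclei ranged from -2.504 to 0.05481 (without GF replicate 1), and Adcy8 in small intestinal non-neuronal nuclei from -5.618 to 0.1948 (without GF replicate 3). Of the 49 results, relative log size factors kept the direction and side of the threshold of 49, the filter at a mean of 2 CPM of 48, limma-voom of 45 and no filter of 45. Only the compared groups kept 29 of 36, all 28 libraries 17 of 19, and leaving out both libraries of highest interstitial cell marker sum 16 of 19. At 3 to 4 libraries a group, members near the floor were not resolved.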
